A study of Homo sapiens with 6 samples.

Results

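CDKN2A and MTAP, neighbouring genes of 9p21, were expressed in all 6 mRNA-seq libraries of K1 cells and were near 0 in the table deposited with them, which gives 1 value per group. The genes described here were these and the neighbours CDKN2B, KLHL9, FOCAD, HACD4, MLLT3, DMRTA1 and PLIN2, 9 of the 19684 genes with Ensembl identifiers in the data. They were chosen by their levels in the libraries and the table, so the contrast between libraries and table is a description and was not tested. K1 is an established human line from a papillary thyroid carcinoma. Cells were transfected, by lipofection, with a negative control siRNA (NC, 3 libraries) or with an siRNA against NEAT1_2, the long isoform of the paraspeckle lncRNA NEAT1 (si-NEAT1_2, 3 libraries). No untransfected cells were among the groups, and both groups carried an siRNA. The study compared the groups to find mRNAs that depend on NEAT1_2. NEAT1 itself was not analysed here. The labels do not say whether libraries of a group came from separate cultures, so p-values measure the spread between these libraries, which may be technical.

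The 9p21 locus is best known for cell cycle inhibitors. CDKN2A encodes p16, which binds CDK4 and CDK6 and so keeps RB active, and, from another first exon and reading frame, p14ARF, which binds MDM2 and so protects p53. CDKN2B next to it encodes p15, a second inhibitor of CDK4 and CDK6 that responds to TGF-beta. MTAP, the next gene, encodes the phosphorylase of methylthioadenosine, a by-product of polyamine synthesis, and returns it to methionine. In many tumours these genes are lost together, and cells without MTAP accumulate methylthioadenosine, an inhibitor of the methyltransferase PRMT5. The other neighbours are unrelated in function: KLHL9 is an adaptor of a CUL3 ubiquitin ligase in mitosis, FOCAD a focal adhesion protein, HACD4 a dehydratase of very long chain fatty acid synthesis, MLLT3 (AF9) a reader of histone acylation, DMRTA1 a DM domain transcription factor and PLIN2 a coat protein of lipid droplets.

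The genes lie on the short arm of chromosome 9 (GRCh38, GENCODE release 29). From the telomere side they are PLIN2 (ENSG00000147872, minus strand, 19108375 to 19149290), MLLT3 (ENSG00000171843, minus, 20341665 to 20622543), FOCAD (ENSG00000188352, plus, 20658309 to 20995955), HACD4 (ENSG00000188921, minus, 20999515 to 21031636) and KLHL9 (ENSG00000198642, minus, 21329671 to 21335380). Then follow MTAP (ENSG00000099810, plus, 21802543 to 21937651), CDKN2A (ENSG00000147889, minus, 21967753 to 21995301), CDKN2B (ENSG00000147883, minus, 22002903 to 22009363) and DMRTA1 (ENSG00000176399, plus, 22446841 to 22455740).

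The DNA before the start sites is shown for the genes of the 9 that were near or at 0 in the group table. KLHL9, the nearest neighbour expressed in every library that was not, is also shown, since it bounds the stretch described below. PLIN2 lies outside that stretch. Sequences are from RefSeq (GRCh38.p14), written 5′ to 3′ on the strand of the gene, with each CG in capitals. Of the 250 bases before each start, those in an annotated exon of the gene were left out. For the p16 start of CDKN2A this left 9 bases, which are not shown. The lines give KLHL9 (chr9:21335405-21335654, minus), MTAP (chr9:21802386-21802542, plus), CDKN2A at the p14ARF start (chr9:21995325-21995574, minus), CDKN2B (chr9:22009364-22009555, minus), DMRTA1 (chr9:22446574-22446823, plus) and PLIN2 (chr9:19127577-19127742, minus).
KLHL9: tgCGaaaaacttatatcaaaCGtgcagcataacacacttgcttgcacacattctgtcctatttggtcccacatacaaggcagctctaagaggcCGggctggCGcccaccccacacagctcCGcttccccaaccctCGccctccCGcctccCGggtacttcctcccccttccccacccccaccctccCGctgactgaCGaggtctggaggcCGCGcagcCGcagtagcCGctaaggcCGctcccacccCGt
MTAP: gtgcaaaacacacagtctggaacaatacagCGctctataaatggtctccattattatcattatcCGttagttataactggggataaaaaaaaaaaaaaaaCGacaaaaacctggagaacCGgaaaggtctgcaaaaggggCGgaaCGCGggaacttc
CDKN2A, p14ARF start: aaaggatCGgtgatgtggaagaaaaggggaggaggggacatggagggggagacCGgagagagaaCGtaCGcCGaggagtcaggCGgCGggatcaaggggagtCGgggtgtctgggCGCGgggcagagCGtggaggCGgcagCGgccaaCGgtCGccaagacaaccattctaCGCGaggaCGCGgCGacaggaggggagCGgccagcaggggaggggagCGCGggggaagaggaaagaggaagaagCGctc
CDKN2B: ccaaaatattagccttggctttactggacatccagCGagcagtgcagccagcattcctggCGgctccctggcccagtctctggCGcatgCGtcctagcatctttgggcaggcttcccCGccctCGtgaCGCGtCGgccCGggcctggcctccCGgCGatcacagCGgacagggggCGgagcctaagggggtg
DMRTA1: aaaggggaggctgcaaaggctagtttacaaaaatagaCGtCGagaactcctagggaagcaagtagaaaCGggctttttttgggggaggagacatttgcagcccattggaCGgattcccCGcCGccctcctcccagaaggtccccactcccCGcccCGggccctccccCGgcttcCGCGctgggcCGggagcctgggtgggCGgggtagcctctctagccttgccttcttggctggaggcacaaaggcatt
PLIN2: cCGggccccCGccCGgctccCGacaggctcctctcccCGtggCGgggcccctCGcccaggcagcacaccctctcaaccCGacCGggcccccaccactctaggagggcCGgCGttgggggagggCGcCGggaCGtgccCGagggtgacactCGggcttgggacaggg

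All 9 genes had a start in the RefSeq table. Over the full 250 bases, the dinucleotide CG (the same on both strands) occurred 11 times before MTAP, 24 times before the p14ARF start, 20 times before the p16 start, 18 times before CDKN2B and 28 times before PLIN2. The neighbours that were detected in the table had 16 (KLHL9), 18 (HACD4), 24 (MLLT3) and 35 (FOCAD), and DMRTA1 had 13. Over 35116 such windows of all genes the median was 11, and 93.94% of windows held at least 1. The genes near 0 in the table and those detected there thus overlapped in their CG content.

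FOCAD also hosts the gene of the miRNA that the study placed between NEAT1_2 and TGM2. The hairpin of MIR491 lies in an intron of FOCAD, on the same strand, at chr9:20716105-20716188. Its mature forms are shown with the seed (bases 2 to 8) in capitals, hsa-miR-491-5p from chr9:20716120-20716141 and hsa-miR-491-3p from chr9:20716154-20716175. The seeds differ. The libraries were of mRNA, so the level of the miRNA was not measured, and FOCAD values below are of the host mRNA only.
hsa-miR-491-5p: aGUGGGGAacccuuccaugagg
hsa-miR-491-3p: cUUAUGCAagauucccuucuac

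Total expected counts were 22798631 to 27066025 per library, and 17678761 (NC) and 19579897 (si-NEAT1_2) in the columns of the group table. How the authors made the group values is not given in the sources used here. The columns were not a mean or sum of these library values, since CDKN2A had 4282 to 8663 counts per library but 0.33 and 0 in the columns. For the 9 genes every column count was a multiple of 1/3, as a mean of 3 values would be. Examples are 0.3333 for CDKN2A and 531.6667 for KLHL9, both in the NC column. Counts that are not whole made up 57.9% (NC) and 59.0% (si-NEAT1_2) of the columns, against 9.19% to 9.61% in the libraries. The origin of the columns was not tested. Of 7 thyroid markers, 3 had an FPKM (fragments per kilobase of gene, scaled to library size) of at least 1 in every library: PAX8 (113 to 169), FOXE1 (5.75 to 8.78) and TG (2.48 to 2.99). NKX2-1, TSHR, SLC5A5 and SLC26A4 were under 1 in every library. Of 6 epithelial markers 4 reached 1 in every library, with a summed FPKM of 2272 to 3082. Of 4 mesenchymal markers VIM alone did (2576 to 2765). None of 4 leukocyte or 3 endothelial markers did, with sums of 0.19 to 0.33 and 0.07 to 0.18 in the libraries and 2.95 to 5.52 and 0.11 to 0.18 in the table. The summed FPKM of the table was 162 to 342 for thyroid markers (122 to 180.3 in the libraries) and 507 to 800 for epithelial markers. Most of the thyroid sum was PAX8, at 330 (NC) and 157 (si-NEAT1_2) in the table. There FOXE1 was 11.2 and 4.79, and TG was 0.317 and 0.133, below all libraries. Single markers stood apart: KRT7 was 684 to 914 in the libraries and 1.66 and 0.69 in the table, and KRT19 was 0.18 to 0.70 in the libraries and 29.8 and 26.7 in the table. In bulk samples such as these, fewer cells that express a gene and less RNA per cell cannot be told apart.

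CDKN2A was by far the most abundant of the 9 genes in the libraries and was all but missing from the table. Its FPKM was 185, 159 and 187 in NC and 220, 314 and 254 in si-NEAT1_2, with counts of 4282 to 8663. In the group table it was 0.0233 for NC (a count of 0.33) and 0 for si-NEAT1_2. Every library lay far above both table values. Set against the floor of 3 counts in the si-NEAT1_2 column (0.153 CPM, that is, counts scaled to library size), the mean of the si-NEAT1_2 libraries, 288 CPM, was at least 1880-fold higher. Such floors cover counting error only. The files do not separate p16 from p14ARF: GENCODE annotates 10 coding transcripts of CDKN2A and the values are per gene.

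MTAP behaved the same way at a lower level. Its FPKM was 19.5, 24.3 and 17.0 in NC, 17.4, 12.4 and 14.9 in si-NEAT1_2, and 0.0033 and 0 in the table. Counts were 1336 to 1766 per library against 0.33 and 0. The si-NEAT1_2 libraries, with a mean of 55.5 CPM, were at least 362-fold above the floor of their column.

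CDKN2B, the p15 gene, was low in the libraries but present in each, with an FPKM of 2.12, 3.41 and 1.75 in NC and 1.75, 1.59 and 2.16 in si-NEAT1_2 (149 to 249 counts). The table held 0.0033 and 0. The mean of the si-NEAT1_2 libraries, 6.59 CPM, was at least 43.0-fold above the floor. CDKN2B resembles CDKN2A in part, and reads from such stretches could be assigned to either gene. Of the 4030 different words of 60 bases in CDKN2B transcripts, 21 (0.52%) also occurred in CDKN2A.

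PLIN2, which lies 2653.3 kb from MTAP, showed the same contrast. Its FPKM was 23.8, 22.5 and 23.0 in NC and 21.8, 25.8 and 23.8 in si-NEAT1_2, the steadiest of the 9 genes over the 6 libraries with a coefficient of variation of 5.90%. The table gave 0.01 and 0.0333, counts of 0.33 and 1.33. Between PLIN2 and MTAP lie 5 genes that reached an FPKM of 1 in every library and were not near 0 in the table.

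DMRTA1, on the other side of CDKN2B, was listed at 0 in both columns of the table. Its level in the libraries was low, with an FPKM of 0.52, 0.90 and 0.51 in NC and 0.51, 0.62 and 0.71 in si-NEAT1_2, from 68 to 114 counts. Both groups of libraries exceeded the floor of 3 counts in their column, NC at least 21.1-fold and si-NEAT1_2 at least 22.3-fold.

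The remaining neighbours were detected on both sides of the contrast. KLHL9 had an FPKM of 7.45, 9.03 and 7.68 in NC, 6.61, 3.85 and 5.89 in si-NEAT1_2, and 5.24 and 3.63 in the table. FOCAD had 8.14, 8.80 and 8.78, then 8.53, 6.25 and 6.88, with 7.17 and 1.98 in the table. The si-NEAT1_2 column lay below all 6 libraries for both genes. For KLHL9 it was close to the lowest library, 3.85, and for FOCAD it was far under the lowest, 6.25.

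MLLT3 had an FPKM of 6.86, 10.5 and 7.88 in NC, 8.38, 6.31 and 7.86 in si-NEAT1_2, and 3.62 and 0.77 in the table. HACD4 was the exception in direction, with 0.67, 1.24 and 0.99 in NC, 0.69, 0.73 and 0.73 in si-NEAT1_2, and the higher values of 2.43 and 1.06 in the table.

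**Figure D1:**
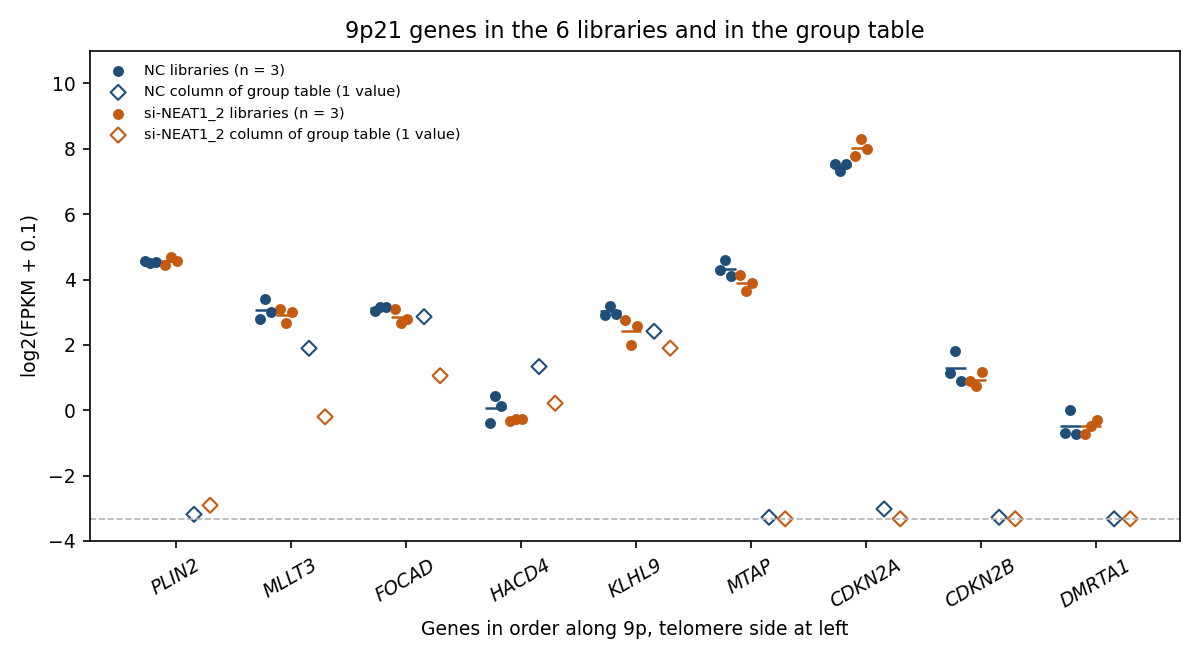
FPKM of the 9 genes on the scale log2(FPKM + 0.1), in order along 9p: filled points are the 6 libraries with a line at each group mean, open diamonds the 2 columns of the group table, and the dashed line an FPKM of 0. CDKN2A, MTAP, CDKN2B, DMRTA1 and PLIN2 have diamonds at or near the dashed line, while those of KLHL9, FOCAD, HACD4 and MLLT3 lie well above it.

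To put these contrasts on 1 scale, the mean log2(FPKM + 0.1) of the table was subtracted from that of the libraries, and the median of all genes with an FPKM of at least 1 in all 8 columns (0.23 over 9533 genes) was taken off. The difference was 10.69 for CDKN2A, 7.38 for PLIN2, 7.18 for MTAP, 4.18 for CDKN2B and 2.61 for DMRTA1. It was 1.92 for MLLT3, 0.80 for FOCAD, 0.34 for KLHL9 and -1.12 for HACD4. Over the 9533 genes its SD was 0.94 and its 5th and 95th percentiles were -1.62 and 1.28. FOCAD, KLHL9 and HACD4 were inside this range and MLLT3 was outside it. With a pseudocount of 1 FPKM the differences shrank to 7.53 for CDKN2A, 4.38 for PLIN2, 3.98 for MTAP, 1.42 for CDKN2B and 0.50 for DMRTA1, so those of the low genes depend on the pseudocount.

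**Figure D2:**
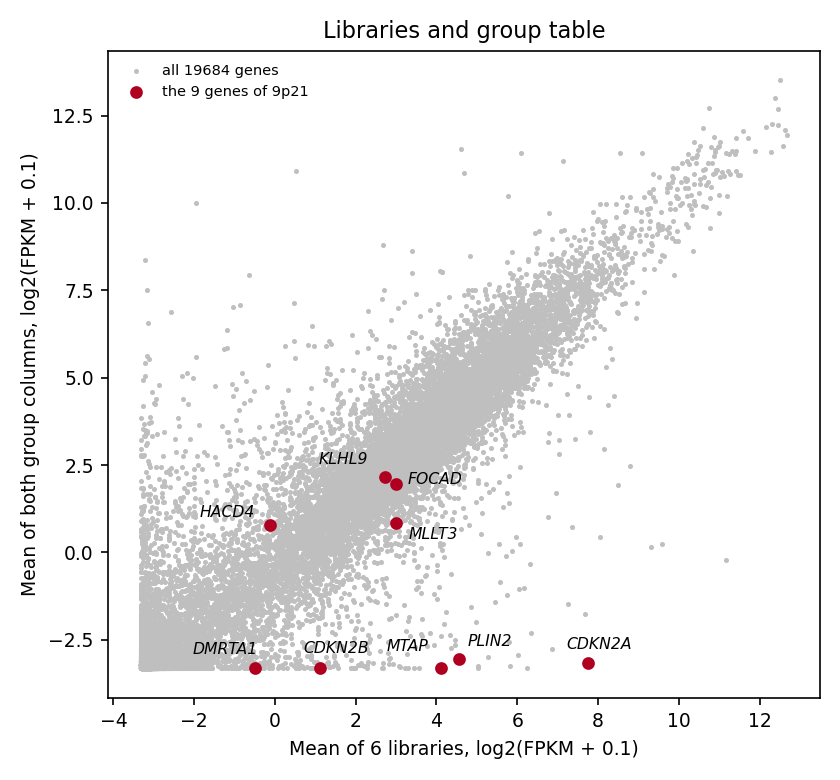
Mean log2(FPKM + 0.1) of the 6 libraries (horizontal) against the mean of the 2 group columns (vertical). All 19684 genes are in grey and the 9 genes described here in red. CDKN2A, PLIN2, MTAP, CDKN2B and DMRTA1 lie along the lower edge, near 0 in the table, and KLHL9, FOCAD, HACD4 and MLLT3 lie in or beside the main cloud.

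Defined as an FPKM of at least 1 in every library and under 0.1 in both group columns, the contrast held for 4 of the 9 genes: CDKN2A, CDKN2B, MTAP and PLIN2. Over the genome it held for 94 of 10292 genes expressed in every library (0.913%). Just inside the limits were CDKN2B, whose lowest library was 1.59, and PLIN2, whose higher table value was 0.0333. Just outside was DMRTA1, whose lowest library was 0.51. Of the 9 genes, among those with at least 1 in every library, the next lowest table values were those of MLLT3, 3.62 and 0.77, well above the limit. With a limit of 0.5 for the libraries DMRTA1 joined, giving 5 of 9 genes against 134 of 11060 (1.21%). The opposite state, an FPKM of at least 1 in both columns and under 0.1 in every library, was found for 0 of the 9 and for 85 of 10209 genes (0.833%). Since these values chose the genes, the shares describe how common the state was and no more.

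Along the chromosome, the genes near 0 in the table formed 1 short stretch and a separate point. Of 61 genes within 10 Mb of CDKN2A, 23 were expressed in every library and 4 of these were near 0 in the table. Among genes expressed in every library, MTAP, CDKN2A and CDKN2B followed each other without a gap. They span 206.8 kb from the start of MTAP to the end of CDKN2B. Counted in this way it was the only run of 3 in the genome, while 7 runs had 2 genes and 77 were single genes. DMRTA1, the next gene past CDKN2B, was at 0 in both columns but under an FPKM of 1 in the libraries. The run as defined therefore leaves it out. On chromosome 9 as a whole 6 of 422 genes expressed in every library (1.42%) were near 0 in the table, among them the 4 above. The region was chosen by these same values, so the counts of runs and genes only describe it.

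The genes that bound this run were KLHL9 on the telomere side and TUSC1, an intronless gene reported as a tumour suppressor candidate, on the other. TUSC1 had an FPKM of 9.79 to 15.4 in the libraries and 12.0 and 13.4 in the table. The end of KLHL9 (21335380) and the start of TUSC1 (25676389) are 4341.0 kb apart. Of the 12 genes between them, MTAP, CDKN2A and CDKN2B were expressed in every library, so the expressed genes leave the edges loosely placed.

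Weaker signals narrowed the interval. Any count over 3 in the table was first met at IFNE, the epithelial interferon epsilon, on the telomere side, whose end is at 21482313. IFNE had 10.3 and 6.0 counts in the table and an FPKM of 0.03 to 1.37 in the libraries. On the other side it was met at ELAVL2, a neuronal RNA-binding protein, which starts at 23690104. ELAVL2 went the opposite way, with an FPKM of 1.42 and 1.67 (88.3 and 119 counts) in the table and at most 0.01 in any library. These positions are 2207.8 kb apart. DMRTA1 lies between them, with 0 counts in both columns of the table and 68 to 114 counts per library. The other interferon genes added no information: of 17 on 9p, 0 reached an FPKM of 1 in every library and IFNE alone exceeded 3 counts, in the libraries and in the table alike.

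PLIN2 stood alone. Its nearest expressed neighbours were HAUS6, an augmin subunit that ends at 19103119, and DENND4C, a Rab exchange factor that starts at 19230435. HAUS6 had an FPKM of 2.70 to 9.24 in the libraries and 4.71 and 4.74 in the table. DENND4C had 2.30 to 7.81 in the libraries and 3.38 and 2.06 in the table. Both therefore lay on either side of PLIN2 with table values inside the range of the libraries or just below it. Over the 19 expressed genes of the window that were not near 0, the median difference between libraries and table was 0.18 and ranged from -1.86 to 1.92, MLLT3 being the highest.

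**Figure D3:**
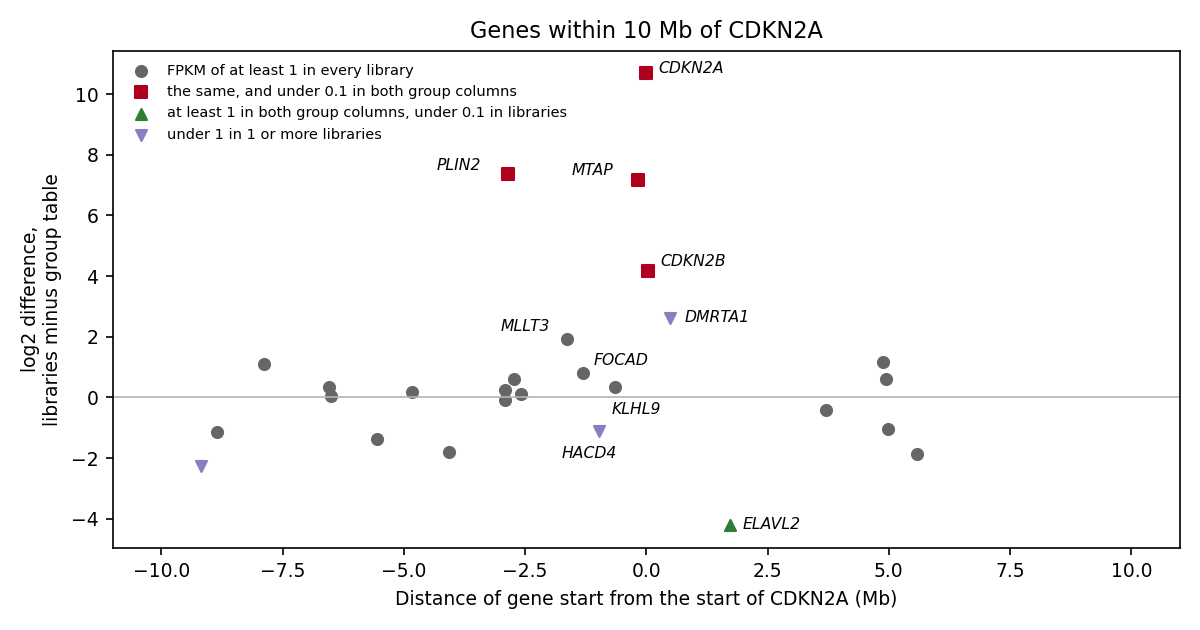
Difference between libraries and group table, on the centred log2(FPKM + 0.1) scale, against the distance of each gene start from that of CDKN2A in Mb, for genes expressed on either side and the 9 genes described. Squares mark MTAP, CDKN2A, CDKN2B and, apart from them, PLIN2 between 4.18 and 10.69, grey points between -1.86 and 1.92 mark the other 19 expressed genes, and the triangle of ELAVL2 lies below 0.

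Within the table, the columns also differed for the neighbours that were detected. The NC value exceeded the si-NEAT1_2 value 4.71-fold for MLLT3, 3.62-fold for FOCAD, 2.29-fold for HACD4 and 1.44-fold for KLHL9. A ratio of at least 2 in this direction was thus found for 3 of these 4 genes, against 1545 of 11042 genes (14%) with an FPKM of at least 1 in a column. The table has 1 value per group, so these ratios have no replicate check. In the libraries the same genes, described next, had fold changes under 2.

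The comparison of si-NEAT1_2 with NC libraries asked whether the genes respond to the knockdown. All 9 genes passed the filter on low counts, and 0 were called, that is, changed at least 2-fold with an adjusted p under 0.05 (quasi-likelihood test of edgeR, Benjamini-Hochberg over 12581 genes). Over all genes 0 were called as well (0%), while 3082 had an unadjusted p under 0.05 and DESeq2 called 62. Of the 9 genes, CDKN2A (higher) and KLHL9 (lower) had an unadjusted p under 0.05. Over all genes this was the case for 11.3% higher and 13.2% lower. The same genes were the only ones of the 9 whose groups did not overlap, CDKN2A with si-NEAT1_2 above NC and KLHL9 with si-NEAT1_2 below, and 15.7% and 14.3% of all genes did likewise. These shares are close to the 1 in 9 seen here in each direction.

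CDKN2A had 215, 182 and 211 CPM after TMM scaling in NC and 247, 363 and 280 in si-NEAT1_2. The means were 203 ± 18.1 and 297 ± 59.8 (SD, n = 3). The log2 fold change from edgeR's quasi-likelihood test was 0.55 (SE 0.155, adjusted p = 0.169), and it ranged from 0.37 without si-NEAT1_2 replicate 2 to 0.66 without si-NEAT1_2 replicate 1. In the last fit the adjusted p was 0.0385, and with DESeq2 it was 0.0446, both at a fold change under 2. CDKN2A has a short transcript of high GC content, 1283 bases (percentile 14 of the genes) and 61.4% (percentile 88.0). With trends over GC content and length removed from each library, a correction added after the data were seen, the log2 fold change was 0.08 (adjusted p = 0.574 from edgeR's test).

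KLHL9, whose longest transcript has 5710 bases and 39.3% GC, had 42.1, 50.0 and 43.5 CPM in NC and 37.4, 23.8 and 33.8 in si-NEAT1_2. The means were 45.2 ± 4.22 and 31.7 ± 7.05 (SD, n = 3). The log2 fold change was -0.51 (SE 0.176, adjusted p = 0.169 in edgeR's test), between -0.65 without si-NEAT1_2 replicate 1, where the adjusted p was 0.0466, and -0.35 without si-NEAT1_2 replicate 2. With the GC and length trends removed it was -0.13. For both genes the value nearest 0 came from leaving out the same library.

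The labels also carry a code for each library that starts with L, whose meaning they do not give. Among libraries with code 2 (2 NC, 1 si-NEAT1_2) the log2 ratio of the groups was 0.89 for CDKN2A and -0.97 for KLHL9. Among those with code 3 (1 of each) it was 0.38 and -0.32. Code 4 held a single si-NEAT1_2 library. The direction was the same within both codes.

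For the other 7 genes the groups overlapped and the adjusted p of edgeR's test was at least 0.226. FOCAD had a log2 fold change of -0.29 (SE 0.145), HACD4 of -0.37 (SE 0.234), CDKN2B of -0.32 (SE 0.215), MLLT3 of -0.27 (SE 0.170) and MTAP of -0.20 (SE 0.137). PLIN2 had 0.10 (SE 0.141) and DMRTA1 0.00 (SE 0.290). Without NC replicate 2 several of these moved towards 0, HACD4 to -0.16, CDKN2B to -0.12, MLLT3 to -0.14 and MTAP to -0.08, while DMRTA1 moved to 0.31. MTAP, HACD4, MLLT3 and PLIN2 changed sign when the GC and length trends were removed, to 0.29, 0.25, 0.20 and -0.10, so no direction is given for them. DMRTA1 had the largest corrected value of the 9 genes, 0.42 (adjusted p = 0.457 from edgeR's test). MTAP alone of the 9 had an unadjusted p under 0.05 after the correction (0.0305 from edgeR's test, adjusted p = 0.260). Over all genes this was the case for 2093 of 12581. MTAP lies next to CDKN2A and shares its state in the table. Their fold changes had opposite signs before the correction and the same sign after it (0.29 for MTAP, 0.08 for CDKN2A). The difference between these genes was not tested.

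**Figure D4:**
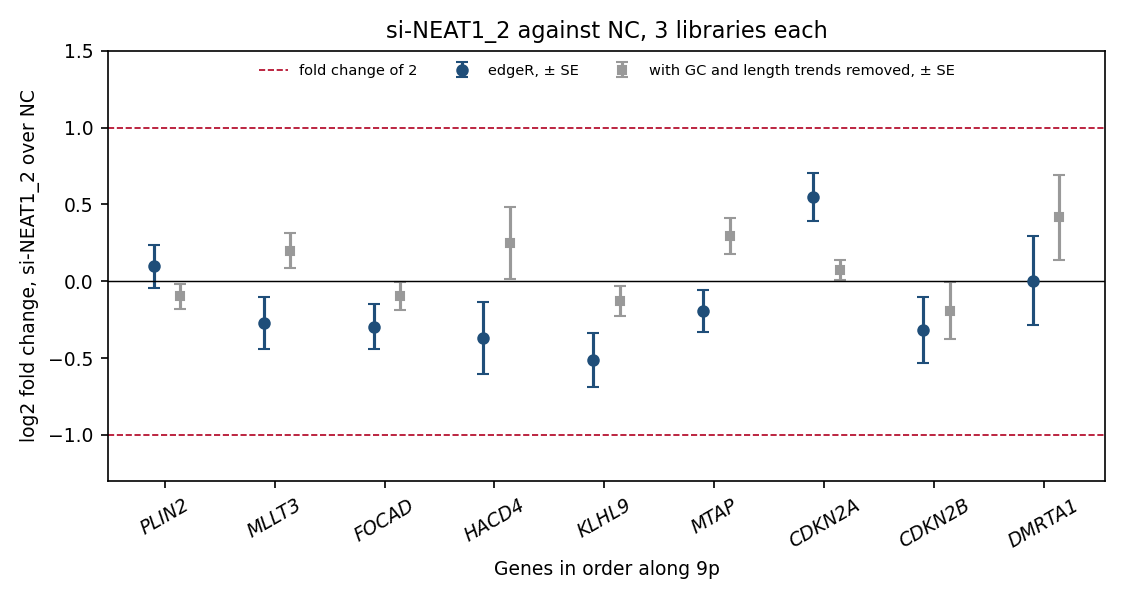
log2 fold change of si-NEAT1_2 over NC for the 9 genes, 3 libraries per group, from edgeR (circles) and with GC and length trends removed from each library (squares), bars ± SE, dashed lines at a fold change of 2. All values stay inside the dashed lines, and the circles of CDKN2A (0.55) and KLHL9 (-0.51) move to 0.08 and -0.13.

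Genes that work with p16 and p15 were present on both sides of the contrast. Of 23 genes of G1 kinases, cyclins, RB proteins and their E2F partners, 22 were expressed in every library and 20 in all 8 columns. CCND2, the gene of cyclin D2 on chromosome 12, was the only one near 0 in the table, with an FPKM of 3.35 to 4.45 in the libraries and 0.0033 and 0.01 in the columns. Between si-NEAT1_2 and NC 0 of the 23 were called by edgeR, and 3 higher (CDK4, CDKN1C, E2F4) and 5 lower (CCNE2, CDK6, RB1, RBL1, RBL2) had an unadjusted p under 0.05, where 11.3% (higher) and 13.2% (lower) of all genes did. The kinases bound by p16 had log2 fold changes of 0.33 (CDK4, SE 0.149) and -0.87 (CDK6, SE 0.290), and RB1 of -0.60 (SE 0.193). Fold changes in this and the following lists are given without the GC and length correction. The median over the list was 0.02, against 0.01 over all genes tested.

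The genes downstream of p14ARF, an MDM2 and p53 list of 8, were expressed in all 8 columns. None was called by edgeR, and 2 had an unadjusted p under 0.05, both higher in si-NEAT1_2, a state found for 11.3% of all genes. They were GDF15, a stress cytokine and p53 target, at a log2 fold change of 0.67 (SE 0.163), and BAX, the pore-forming apoptosis protein, at 0.40 (SE 0.169). The median of the list was 0.10.

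The list around MTAP held 16 genes of methionine salvage, polyamine synthesis and the PRMT5 complex, and all 16 were expressed in all 8 columns. Here again 0 were called by edgeR. With an unadjusted p under 0.05 stood AHCY (adenosylhomocysteinase, 0.52, SE 0.141), ODC1 (ornithine decarboxylase, 0.34, SE 0.137) and SRM (spermidine synthase, 0.41, SE 0.184) on the higher side and AMD1 (adenosylmethionine decarboxylase, -0.45, SE 0.153) on the lower, as log2 fold changes. Over all genes these sides held 11.3% and 13.2%. The median was 0.20. In each of the 3 lists the lowest adjusted p was 0.169.

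By the Euclidean distance of log2(FPKM + 0.1) over the 8 columns, which follows the contrast used to choose the genes, the profiles nearest to CDKN2A were those of SFN (2.04), SCARA3 (2.54), FXYD2 (2.82), LRRC61 (3.76) and GFRA1 (3.79). SFN, the 14-3-3 sigma gene, had an FPKM of 163 to 274 in the libraries and at most 0.21 in the table. Nearest to MTAP were KCTD15 (1.01), UGT2B7 (1.18), SGK2 (1.43), PLIN2 (1.46) and EFNA1 (1.71). Of these 10 genes PLIN2 alone lies on chromosome 9.

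Some limits apply to single values. Exons of CDKN2A overlap those of the antisense gene CDKN2B-AS1 on the opposite strand over 341 bases, 7.9% of its exon bases. Exons of MTAP overlap AL359922.1 (460 bases) and ERVFRD-3 (684 bases) on the same strand and AL359922.2 (257 bases) on the opposite strand. Whether counting used the strand is not given in the sources used here, and strand does not separate overlaps on the same strand. Reads in the overlaps on the same strand therefore cannot be assigned to 1 gene. Those in the overlaps on opposite strands can be only if counting used the strand.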

How the data were processed

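RNA of 6 K1 libraries was sequenced by the authors. The study's methods describe enrichment of mRNA on oligo(dT) beads and also removal of rRNA with a kit. The submitters' processing notes name fastp 0.18.0, Bowtie2 2.2.8, HISAT2, StringTie 1.3.1 and GRCh38, and the study's methods name TopHat2 and RSEM. Which of them made the values is not stated. The deposited expected counts are estimates per gene, not normalized, and the deposited FPKM values were scaled by the authors for library size and gene length. The group table, also deposited, has the same units with 1 value per group.

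Rows with no gene name (838 per library, 0.336% to 0.447% of counts) were left out. Positions, GC content and length came from GENCODE release 29 and sequences from RefSeq.

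Rounded expected counts were filtered with filterByExpr, scaled by TMM and tested across all genes in R 4.3.3 by edgeR 4.0.16, quasi-likelihood, with Benjamini-Hochberg adjustment. No covariate was used. DESeq2 1.42.0, limma 3.58.1, other filters and scalings, a replicate block, the L code and the omission of each library were alternatives. A correction for GC content and length (a spline per library, 5 degrees of freedom) was added after the data were seen. The script was tested on simulated data.

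The 9 genes, the pathway lists and the marker lists were chosen with earlier results of these data known. Named were the 9 genes, the genes that bound the stretch, the 5 nearest profiles to CDKN2A and to MTAP, interferon genes by counts, and list members with an unadjusted p under 0.05 or near 0 in the table. HAUS6, DENND4C, KRT7 and KRT19 were chosen after their values were seen. NEAT1 was not analysed here, and 1 further thyroid marker, beside the 7 given, is not reported here.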

Additional observations from a re-analysis of the deposited data

How the results depend on the processing

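Of the 9 genes, 0 were called between si-NEAT1_2 and NC in the main analysis and under every alternative run. Over all genes the count of calls was 0, and 1 without TMM scaling, 62 with DESeq2 (18 higher, 44 lower, 1709 genes without an adjusted p), 17 without the filter on low counts (of 17970 genes), 1 with limma on log2(FPKM + 0.1), 183 at an unadjusted p under 0.05 (73 higher, 110 lower) and 4 with the GC and length correction. Leaving out 1 library gave 0 to 331 calls. The 331 (40 higher, 291 lower) came without si-NEAT1_2 replicate 1, and 3 came without si-NEAT1_2 replicate 2.

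The replicate block gave 0 calls over all genes and 0 among the 9. The study's methods mention pairs of NC and si-NEAT1_2 cells but do not say which libraries formed a pair. Libraries of the same number did not deviate together (correlations of -0.29, -0.38 and -0.02), so the numbers were not taken as pairs in the main analysis.

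The direction turned for DMRTA1 (main value 0.00) without TMM (-0.062), with DESeq2 (-6e-04), without the filter (-0.0042) and with limma on log2(FPKM + 1) (-0.02) and log2(FPKM + 0.1) (-0.029). Leaving out a library gave DMRTA1 -0.14 to 0.31 and PLIN2 -0.027 to 0.19. The GC and length correction turned MTAP (0.29), HACD4 (0.25), MLLT3 (0.20) and PLIN2 (-0.10). The cause was not tested. The median over all genes was 0.01, and -0.05 without TMM.

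The number of genes of the 9 that were expressed in every library and near 0 in the table was 4, and 3 to 5 with other limits (3 with an FPKM of at least 5 in the libraries). The table has 1 value per group, and counts under 3 limit what it can show.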
